A study of Schizosaccharomyces pombe with 15 samples.

Results

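Atf1 and Pcr1 are bZIP proteins, transcription factors akin to ATF and CREB, that fission yeast (Schizosaccharomyces pombe) uses in its response to stress and in sexual development. They are known as a heterodimer that binds the word TGACGT, the core of the ATF/CRE site, and the longer heptamer ATGACGT, the M26 site of meiotic recombination hotspots. Atf1 is a target of the stress-activated kinase Sty1, and bZIP proteins of this family can also bind DNA as homodimers. The data described here are the places where the deposited lists hold an Atf1 peak and no Pcr1 peak.

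An Atf1 peak was a member when its interval shared not even 1 bp with an interval of the Pcr1 list. This held for 776 of 1995 Atf1 peaks (38.9%), and the other 1219 had Pcr1. The members were thus chosen by measured values, the Atf1 and Pcr1 peak calls, and every difference in Atf1 or Pcr1 strength between the classes is given as a description only. Members made up 41.2% of the 855 Atf1 peaks of chromosome 1 (95% interval 37.8 to 44.6%), 38% of the 727 of chromosome 2 (34.4 to 41.6%) and 35.8% of the 413 of chromosome 3 (31.2 to 40.7%). These intervals overlapped.

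The study mapped FLAG-tagged proteins by chromatin immunoprecipitation and sequencing (ChIP-seq), with 15 samples in 8 groups and 4 peak lists, 1 per protein. All strains were h90 ade6-M210 leu1-32 ura4-D18. The Atf1 strain carried atf1-3xFLAG-hph and the Pcr1 strain pcr1-3xFLAG-hph, and both also had the CenH element of the silent mating-type region deleted and replaced by 9xtetO-ura4. The Deb1 strain carried deb1-3xFLAG-hph, the Orc1 strain a copy of orc1 with 5xFLAG and a kan marker, and both had no CenH deletion in their labels. The untagged strain had neither a tag nor that deletion, and its sample is named in the labels with the Atf1 list. Atf1, Pcr1, Deb1 and Orc1 each had 2 precipitations, Deb1 and Orc1 also had 2 inputs, and 2 further Atf1 samples came from cells lacking s1 and s2 and were not analysed here. Cells grew in rich medium at 32 °C, were held at 18 °C for 2 hours and were fixed there with formaldehyde for 30 min, so all lists describe cells after a move to the cold. Each protein has 1 list, so there is no spread between replicates to set a difference against, and p-values describe these lists. The Atf1 and Pcr1 peak names carry Lib1, and the Deb1 and Orc1 names carry rep1. The labels do not say whether a list rests on 1 library or on both precipitations. The depth behind each list is unknown.

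Some of the members held the ATF/CRE core near their summit, many of them with the summit inside a coding sequence. The sequences below are shown because they are the 5 core-bearing members of highest Atf1 fold, followed by 4 at genes with a known part in carbon source, nutrient or chromatin control; the last 4 were chosen after their values were seen. They are from the RefSeq reference of assembly ASM294v3, 5′ to 3′ on the strand that reads TGACGT, and capitals mark that core.

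SPAC977.17 (chr1:69592-69621, minus strand): gcaagtatttcaTGACGTaatggtcatatc
pvg5 (chr1:4785240-4785325, minus strand): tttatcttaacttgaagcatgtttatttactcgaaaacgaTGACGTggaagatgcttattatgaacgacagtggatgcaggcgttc
dps1 (chr2:684912-684997, plus strand): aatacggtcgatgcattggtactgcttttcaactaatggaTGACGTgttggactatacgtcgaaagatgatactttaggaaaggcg
are1 (chr1:2305053-2305138, plus strand): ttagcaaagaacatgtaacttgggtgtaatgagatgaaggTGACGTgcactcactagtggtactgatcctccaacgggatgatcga
nup189 (chr1:3197366-3197451, minus strand): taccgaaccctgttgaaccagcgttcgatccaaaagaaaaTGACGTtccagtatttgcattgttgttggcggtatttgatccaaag
fbp1 (chr2:200264-200349, plus strand): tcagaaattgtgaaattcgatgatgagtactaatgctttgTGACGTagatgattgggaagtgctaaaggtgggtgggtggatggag
cpc2 (chr1:2439832-2439917, plus strand): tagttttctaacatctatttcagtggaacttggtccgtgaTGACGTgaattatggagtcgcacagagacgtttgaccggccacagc
tor2 (chr2:920872-920957, minus strand): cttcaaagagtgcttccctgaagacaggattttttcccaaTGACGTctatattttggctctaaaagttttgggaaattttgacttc
epe1 (chr3:1434271-1434356, plus strand): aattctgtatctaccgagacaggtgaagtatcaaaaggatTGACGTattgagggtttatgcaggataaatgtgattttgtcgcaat

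Other members overlapped a peak of Deb1, a DNA-binding protein. Of the 36 such members whose sequence could be read, 7 held a different word near the summit. The next sequences are the 5 of highest Atf1 fold among the 7 members under a Deb1 peak with GGTAACA near the summit; the other two, nearest nrd1 and SPCC569.01C, are not printed. The word is in capitals, and the strand is the one that reads it. Each label names the nearest protein-coding gene start. The taf13 and vps38 sequences lie in long terminal repeats (LTRs), the remnants of Tf retrotransposons, and differed at 4 of 87 positions. The car1 peak has its summit in a tRNA gene, at −1031 bp from the car1 start.

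taf13 (chr3:2320017-2320103, minus strand): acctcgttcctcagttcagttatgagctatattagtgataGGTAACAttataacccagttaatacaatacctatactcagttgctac
vps38 (chr2:1805868-1805954, minus strand): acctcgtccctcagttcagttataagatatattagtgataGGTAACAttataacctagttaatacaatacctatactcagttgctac
car1 (chr2:326211-326297, plus strand): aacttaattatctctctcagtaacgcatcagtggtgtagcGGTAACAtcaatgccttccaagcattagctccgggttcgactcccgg
pas1 (chr1:1360952-1361038, minus strand): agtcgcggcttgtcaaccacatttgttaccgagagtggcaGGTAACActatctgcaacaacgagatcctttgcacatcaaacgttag
fep1 (chr1:442062-442148, minus strand): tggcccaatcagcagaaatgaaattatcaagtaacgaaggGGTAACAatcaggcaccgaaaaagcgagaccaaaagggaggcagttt

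For contrast, the strongest Atf1 peak with Pcr1 that held the full palindrome TGACGTCA is shown, a form that was found in none of the members.

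pqr1 (chr1:2423871-2423958, plus strand): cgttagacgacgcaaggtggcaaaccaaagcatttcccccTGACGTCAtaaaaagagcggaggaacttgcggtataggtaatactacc

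Members were weak peaks. Their Atf1 fold enrichment, the authors' ratio over the control at the summit, ran from 1.47 to 4.66 with a median of 1.96, and that of the Atf1 peaks with Pcr1 ran from 1.45 to 5.90 with a median of 2.61. The fold was under 2 in 433 members (55.8%) and in 167 of the peaks with Pcr1, and at least 3 in 14 members and 402 of the others. The median −log10 q-value, the caller's measure of confidence, was 4.40 in members and 12 in the others, and the median width was 151 bp and 393 bp. When all Atf1 peaks were put into 5 strata of Atf1 fold with about equal numbers, the share without Pcr1 was 75.5, 58.8, 41.4, 15 and 3.27% from the weakest stratum to the strongest. Being a member and being a weak Atf1 peak therefore went together in these lists, and the 9 features tested below are also compared within such strata. For features read from genes or sequence the strata were formed in the annotated part alone, where 74.2, 59.8, 40.1, 15.5 and 4.04% were without Pcr1.

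**Figure D1:**
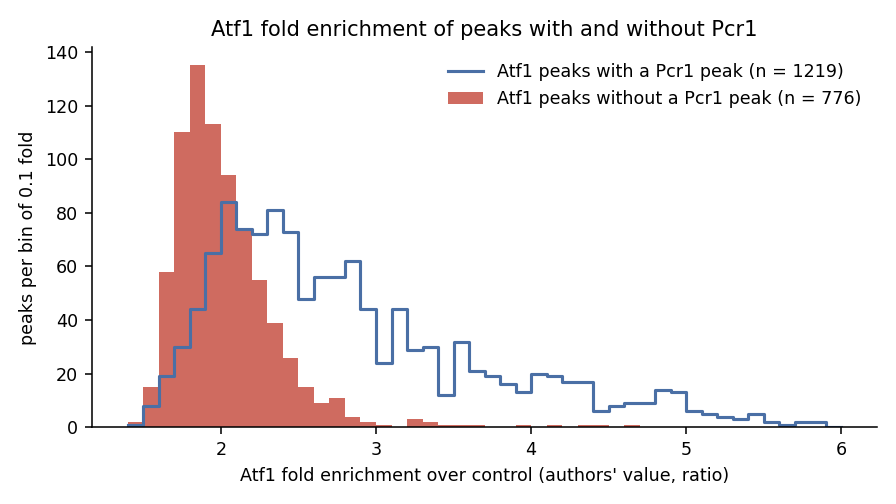
Number of Atf1 peaks (vertical axis, peaks per bin of 0.1 fold) by the authors' Atf1 fold enrichment (horizontal axis, ratio over control); the filled bars are the 776 peaks without Pcr1 and the line the 1219 peaks with Pcr1. The bars pile up below a fold of 2 (433 of 776), and the line reaches 5.90 while the bars end at 4.66.

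Many members lay close to a Pcr1 peak without touching it. The distance to the nearest Pcr1 interval ran from 2 to 31762 bp with a median of 2117 bp. It was at most 100 bp for 22 members, at most 500 bp for 181 (23.3%) and at most 1000 bp for 267 (34.4%), and it was at least 5000 bp for 234. A further Atf1 peak that did have Pcr1 lay within 1000 bp of 218 members (28.1%). Just inside the rule were the member at rpl1701, which encodes a protein of the large ribosomal subunit, at 2 bp from a Pcr1 peak, the one upstream of xlf1, a gene of DNA end joining, at 11 bp, and the one in the coding sequence of atp2 (nearest start SPAC222.17) at 15 bp. Just outside it were peaks in byr3 and rpl1201, which shared 17 and 20 bp with a Pcr1 peak, and one on the right arm of chromosome 2 that shared 21 bp. These 6 peaks had Atf1 folds between 1.73 and 2.49.

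Genes and sequence were read on chromosome 1, on chromosome 3 and on the part of chromosome 2 before position 2110000. This annotated part holds 624 members and 985 Atf1 peaks with Pcr1. The lists extend 12185 bp beyond the reference end of chromosome 2, and the core lay within 40 bp of 22.7, 22.3 and 20.6% of Atf1 summits of fold at least 2.5 on chromosome 1, the left part of chromosome 2 and chromosome 3, but of 1.56% right of position 2160000. On that right part the reference letters are therefore not those under the peaks, and the 152 members beyond position 2110000 have no gene or sequence here.

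The core was present in a minority of members. TGACGT, searched on both strands within 100 bp of the summit, was found in 76 of 624 members (12.2%, exact 95% interval 9.72 to 15.0%) and in 177 of 985 peaks with Pcr1 (18.0%, 15.6 to 20.5%). Over all Atf1 peaks of the annotated part it was 15.7%, and over windows of the same length along the genome 3.13%. The odds of a core were lower in members (odds ratio 0.633, two-sided Fisher's exact test, p = 0.00251 after Benjamini-Hochberg adjustment over the 9 features compared). Within strata of fold no difference was detected (odds ratio 1.41, 95% interval 0.948 to 2.09, exact conditional test, adjusted p = 0.126). This result turned on the settings. The overall call was lost when sharing meant at least 50% of the Atf1 interval (0.838) or a Pcr1 peak within 500 bp (0.834), without members within 1000 bp of an Atf1 peak with Pcr1 (0.759), with midpoints as summits (0.912) and with Atf1 peaks of −log10 q at least 10 (0.622) or fold at least 2.5 (0.466). Within strata 6 alternatives gave a call above 1 (1.63 to 2.0), and Pcr1 peaks of −log10 q at least 10 gave one below it (0.574, exact adjusted p = 0.0343).

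The counts by stratum follow. In members the core was found in 27 of 241 (11.2%), 26 of 193 (13.5%), 13 of 127 (10.2%) and 9 of 50 (18.0%) peaks in the lower 4 strata, and in 1 of 13 (7.69%) in the strongest. In peaks with Pcr1 it was found in 3 of 84 (3.57%), 11 of 130 (8.46%), 12 of 190 (6.32%), 42 of 272 (15.4%) and 109 of 309 (35.3%). None of the 5 strata gave a difference on its own (exact adjusted p between 0.117 and 0.674). The peaks with Pcr1 held the core most often in their strongest stratum, where members were few, and a difference in trend across the strata was not tested.

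**Figure D2:**
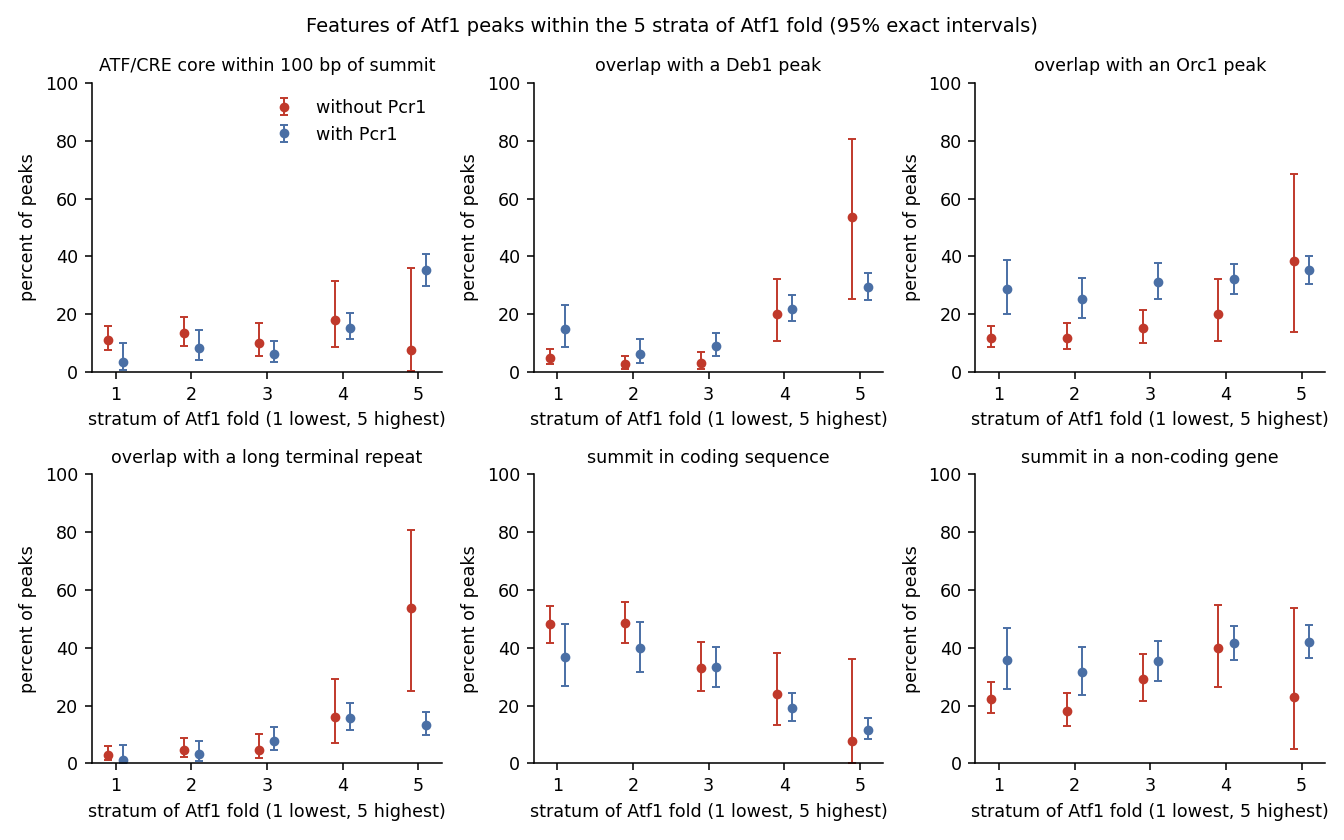
Percent of Atf1 peaks with each of 6 features (vertical axes) in strata of Atf1 fold (horizontal axes, 1 weakest, 5 strongest) for peaks without and with Pcr1; points are shares and bars exact 95% intervals. In the strongest stratum 35.3% of peaks with Pcr1 and 7.69% of members held the ATF/CRE core, while Deb1 peaks and long terminal repeats were each at 53.8% of those 13 members.

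The letters next to the core were counted as well. The palindrome TGACGTCA was in 0 of 624 members, which allows a share of up to 0.481% by 3 counts of 624 (0.589% by the exact interval), and in 22 of 985 peaks with Pcr1 (2.23%, Fisher's exact test, adjusted p = 4.29e-05). Within the strata of fold this was not a detectable difference (exact adjusted p = 0.427). At the core nearest the summit, read on 1 strand, an A before the core, which makes the M26 heptamer ATGACGT, stood in 33 of the 76 members with a core (43.4%) and 80 of the 177 peaks with Pcr1 and a core (45.2%). A T directly after the core stood in 38 (50%) and 60 (33.9%), a difference that was not tested. The core sat near the summit in both classes, at a median distance of 16.5 bp in members and 13.5 bp in the others, with 85.5% and 85.3% within 50 bp.

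**Figure D3:**
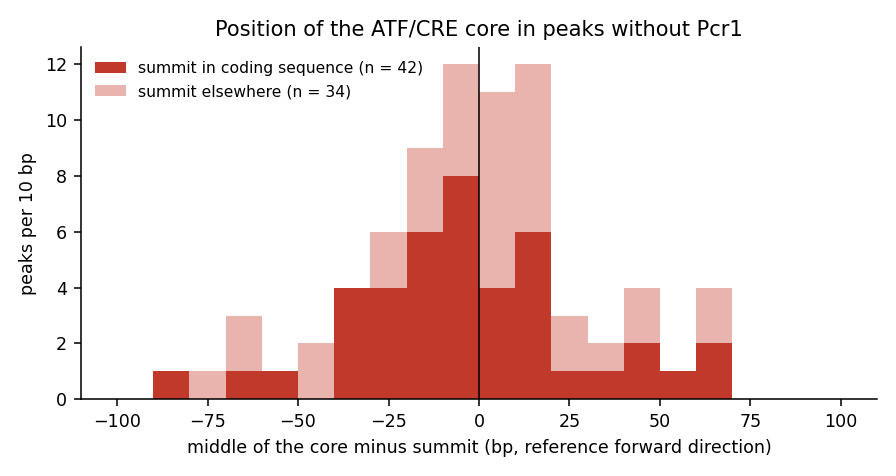
Position of the ATF/CRE core relative to the summit (horizontal axis, bp) in the 76 members that hold it within 100 bp, as peaks per 10 bp (vertical axis), with dark bars for the 42 summits in coding sequence and light bars for the other 34. The bars are highest next to 0, and 85.5% of the cores lie within 50 bp of the summit.

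Of the 76 core-bearing members, 42 had the summit in coding sequence. Of the 265 members with a summit in coding sequence, 42 (15.8%, 11.7 to 20.8%) held TGACGT, against 3.26% of coding windows of the genome, and 23 (8.68%, 5.58 to 12.7%) held ATGACGT, against 0.353%. Of the 359 members elsewhere, 34 (9.47%, 6.65 to 13.0%) held TGACGT, against 2.95% of such windows, and 10 (2.79%) held ATGACGT, against 0.529%. The heptamer was thus 24.6 times as frequent at coding members as in coding sequence at large and 5.27 times at the other members. In peaks with Pcr1 these ratios were 19.4 (6.84% of coding summits) and 17.4 (9.19% of the others). The core of peaks with Pcr1 was found at 32 of 234 coding summits (13.7%) and at 145 of 751 others (19.3%).

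The 5 core-bearing members of highest fold, whose sequences stand above, show the range of places. The strongest, with an Atf1 fold of 3.43, lay in a UTR of SPAC977.17 on the left end of chromosome 1, with the core 0.5 bp from the summit, and overlapped an Orc1 peak. The member in pvg5, a gene of cell-wall galactomannan pyruvylation, had a fold of 2.96, its core 8.5 bp from the summit and the nearest Pcr1 peak 2183 bp away. The member in dps1, which encodes a subunit of the synthase for the ubiquinone side chain, had a fold of 2.74 and lay 330 bp from a Pcr1 peak of fold 5.11. Upstream of are1, a sterol acyltransferase gene, the member summit lay at −47 bp from the start with a fold of 2.72, and in nup189, the gene of nucleoporins Nup98 and Nup96, it had a fold of 2.71. The are1 and nup189 members lay 6115 and 5892 bp from the nearest Pcr1 peak.

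Known regulators were among the core-bearing members at lower fold. At fbp1, the gluconeogenic fructose-1,6-bisphosphatase gene and a well-studied Atf1-Pcr1 target, the member (chr2:199696-200486) had its summit at −929 bp from the gene start, a fold of 2.34, and its −log10 q was 16.1. Its core was 8.5 bp from the summit and the nearest Pcr1 peak was 1223 bp away. In tor2, the kinase of the growth-promoting complex TORC1, the core lay 0.5 bp from a summit of fold 2.012 in coding sequence, 19192 bp from any Pcr1 peak. In epe1, the gene of a JmjC protein that limits heterochromatin, the coding member had a fold of 1.94, and the gene also had an Atf1 peak with Pcr1 of fold 3.01. The core-bearing member in cpc2, the RACK1 gene of the ribosome, had a fold of 2.27 and its core 62.5 bp from the summit.

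Members had their summits in coding sequence more often than the other Atf1 peaks did, though not detectably so at like fold. Of the 624 members, 265 summits (42.5%, 38.6 to 46.5%) were in coding sequence, 61 in a UTR, 9 in an intron, 149 in a non-coding gene outside protein-coding genes and 140 in no gene. Of the 985 peaks with Pcr1, 234 (23.8%) were in coding sequence and 381 (38.7%) in a non-coding gene. Coding sequence held 31% of all Atf1 summits of the annotated part. The odds ratio for coding sequence was 2.37 (Fisher's exact test, adjusted p = 1.36e-14), and within strata of fold it was 1.29 (0.993 to 1.67, exact adjusted p = 0.0939). Within strata of peak width instead it was 2.17 (exact adjusted p = 8.4e-09). In both classes coding summits were commonest among weak peaks, from 48.1 and 36.9% in the weakest stratum to 7.69 and 11.7% in the strongest.

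Summits in non-coding genes and outside protein-coding genes stayed scarcer in members at like fold. A summit in both a protein-coding and a non-coding gene was not counted here, so this share depends on the share in coding sequence. The share was 23.9% in members and 38.7% in peaks with Pcr1, with an odds ratio of 0.497 (exact adjusted p = 1.13e-09) and of 0.624 within the strata (0.475 to 0.819, exact adjusted p = 0.00228). The within-strata call was lost without repeats and chromosome ends (0.71, exact adjusted p = 0.0724). Promoter windows, which reach from 1000 bp before a protein-coding gene's start to 200 bp after it, held 351 member summits (56.2%) and 630 of the others (64.0%). That difference (odds ratio 0.725, exact adjusted p = 0.00263) was not detected within the strata, where the ratio was 1.22 (exact adjusted p = 0.156). Gene ends, within 300 bp, held 21.2% of members and 19.1% of the others, which was not a detectable difference (odds ratio 1.14, 0.878 to 1.47, exact adjusted p = 0.336). Within the strata the ratio was 0.966 (exact adjusted p = 0.823).

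The 265 coding summits fell in 237 genes. The median length of the gene under a coding member was 2020 bp, against 1815.5 bp under a coding peak with Pcr1 and 1773 bp over all protein-coding genes. Summits lay at a median of 49.0% of the way along the gene. End4 (a clathrin adaptor of endocytosis), cpc2, ogm1 (an O-mannosyltransferase of the endoplasmic reticulum) and tlh1 (a subtelomeric RecQ helicase) each had 3 members. Several genes tied at 2, of which nup189 had the member of highest fold (2.71). AT content within 150 bp on each side of the summit was 58.0 ± 4.34% (SD, n = 265) at coding members. At coding peaks with Pcr1 it was 57.0 ± 4.52% (n = 234). Elsewhere it was 65.2 ± 4.05% at members (n = 359) and 63.1 ± 4.78% at peaks with Pcr1 (n = 751).

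Members overlapped the other 2 mapped proteins less often than peaks with Pcr1 did. A Deb1 peak was overlapped by 45 of 776 members (5.8%) and 233 of 1219 peaks with Pcr1 (19.1%), with 13.9% over all Atf1 peaks. The odds ratio was 0.261 (exact adjusted p = 7.41e-18), and within strata of fold 0.557 (0.363 to 0.847, exact adjusted p = 0.0133). The shares crossed over with strength. In the weakest stratum 4.82% of members and 14.9% of the others had Deb1, and in the strongest 7 of 13 members (53.8%) and 29.4% of the others did, a difference in the strongest stratum that did not pass the test (exact adjusted p = 0.116). With Deb1 peaks of fold at least 3 only, the ratio within the strata was 0.839 (exact adjusted p = 0.569). It was 0.451 (exact adjusted p = 0.0895) when repeats and chromosome ends were left out.

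Orc1 belongs to the complex that recognises origins of DNA replication. An Orc1 peak was overlapped by 106 members (13.7%) and 387 peaks with Pcr1 (31.7%), with 24.7% over all Atf1 peaks. This was the difference with the lowest p among the 9 features both overall (odds ratio 0.34, exact adjusted p = 7.62e-20) and within the strata (0.421, 0.316 to 0.559, exact adjusted p = 3.02e-09). The shares from the weakest stratum to the strongest were 11.9, 11.9, 15.2, 20 and 38.5% in members and 28.7, 25.2, 31.2, 32.1 and 35.3% in the others. The lower 3 strata each passed the test (exact adjusted p between 0.000594 and 0.00162) and the upper 2 did not. Members were also the narrower Atf1 intervals (median 151 against 393 bp), and within strata of width in place of fold the odds ratios were 0.351 for Orc1 (exact adjusted p = 8.67e-13) and 0.488 for Deb1 (exact adjusted p = 0.000298).

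The members of highest Deb1 fold were at LTRs. The 36 members with Deb1 in the annotated part had no summit in coding sequence, and none of the 36 (0) held the ATF/CRE core. Of the 194 peaks with both Pcr1 and Deb1 there, 10 had a coding summit and 27 held the core. The word GGTAACA lay within 50 bp of the summit in 7 of the 36 members with Deb1 (19.4%) and in 5 of the other 588 members (0.85%). The same shares in peaks with Pcr1 were 17 of 194 (8.76%) and 7 of 791 (0.885%). The word was chosen with earlier results of these data known, so these shares are a description only and were not tested. The 7 members are also not all separate sequences, since those nearest taf13 and vps38 differed at 4 of 87 positions. An LTR was under 20 of the 36 members with Deb1, and under 74 of the 194 peaks with both Pcr1 and Deb1. By Deb1 fold the leading members were one on the right arm of chromosome 2 (chr2:4449985-4450077, Deb1 fold 6.94, Atf1 fold 1.77), then those nearest SPAC1705.02 (6.90), imp4 (6.58), SPCC1919.04 (6.43) and pib2 (6.32), and these last 4 were all at LTRs.

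LTRs, most with Deb1, also led the members by Atf1 fold. The highest, with a fold of 4.66, lay at −81 bp from the start of atp25 and had a Deb1 peak of fold 6.02. Next came one at −514 bp from mug163 (4.41, Deb1 5.85), one nearest SPBC1348.12 (4.32, Orc1 2.5), one at −377 bp from SPCC1919.04 (4.10) and one at −83 bp from ddr48 (3.98, Orc1 1.89). The next 5 were nearest SPBC18E5.09C (3.67), imp4 (3.59, a component of ribosomal RNA processing), SPAC977.17 (3.43, described above), ent1 (3.38, an epsin of endocytosis) and isp3 (3.36, a spore coat gene). Of these first 10, 6, those at atp25, mug163, SPCC1919.04, SPBC18E5.09C, imp4 and ent1, were at LTRs, and 5 of the 6 also had a Deb1 peak. Deb1 at LTRs was not particular to members. Over the annotated part 20 of 37 members at LTRs had a Deb1 peak, as did 74 of 104 peaks with Pcr1 at LTRs. The SPCC1919.04 and imp4 members were 109 and 90 bp from a Pcr1 peak, and the atp25 member was 4833 bp away.

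Among the first 20 members by fold (2.76 to 4.66), 10 were at LTRs, 10 had Deb1, 6 had Orc1, 2 held the core and 2 were in coding sequence. Among the other 604, 4.3% had Deb1, 13.9% had Orc1, 12.3% held the core and 43.5% were in coding sequence. A Deb1 or an Orc1 peak was thus at 14 of the first 20.

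**Figure D4:**
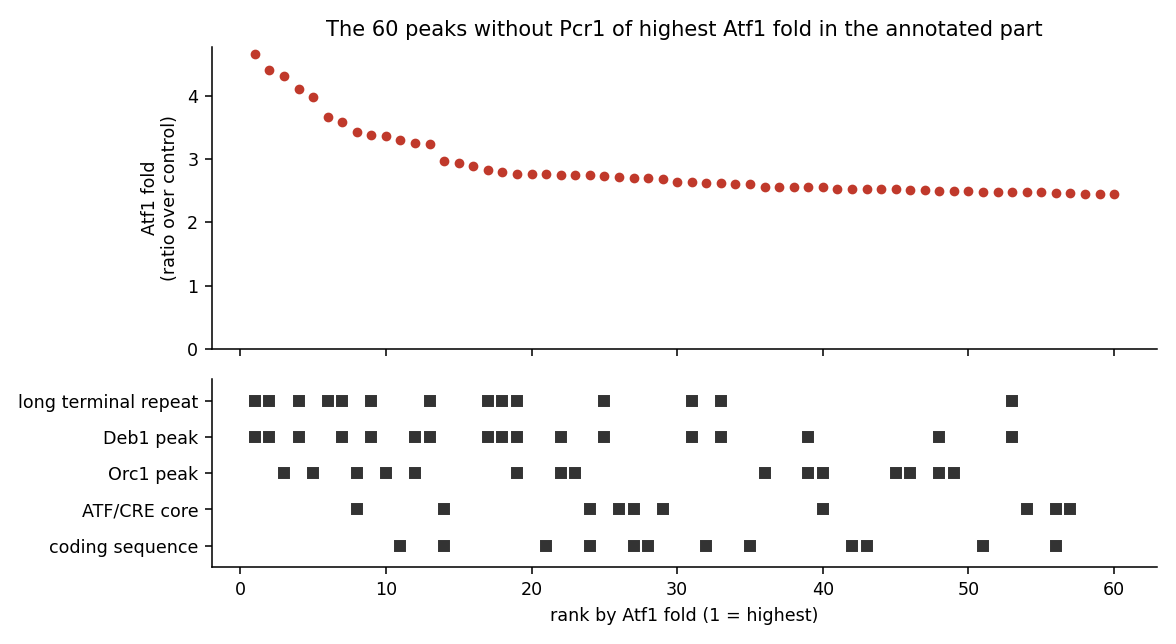
The 60 members of highest Atf1 fold in the annotated part, ranked (horizontal axis), with the fold as a ratio over control (upper vertical axis) and a square below for each feature a peak has. Squares for long terminal repeats and Deb1 peaks lie mostly in the first 20 ranks (10 each), where 2 peaks hold the ATF/CRE core.

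Over all members LTRs were less frequent than in the other Atf1 peaks, and not detectably so at like fold. They were under 37 members (5.93%) and 104 peaks with Pcr1 (10.6%), an odds ratio of 0.534 (exact adjusted p = 0.0022) that was 1.35 within the strata (0.813 to 2.21, exact adjusted p = 0.247). In the strongest stratum alone, 7 of 13 members (53.8%) and 41 of 309 others (13.3%) were at an LTR (Fisher's exact p = 0.000916, and 0.00458 adjusted over the 5 strata). That test rests on 13 members and takes each peak as independent, which peaks at copies of a repeat may not be. LTRs are repeats, and the taf13 and vps38 sequences differed at 4 of 87 positions. Reads may therefore belong to more than one copy, and each of these peaks may be uncertain in its place. How far reads were shared between copies was not measured. tRNA genes, many of them also repeated, were under 12 members (1.92%) and 53 peaks with Pcr1 (5.38%). The tRNA odds ratio was 0.345 (exact adjusted p = 0.000732) and 0.457 within the strata (0.209 to 0.931, exact adjusted p = 0.0496). An Orc1 peak was at 10 of the 12 tRNA members and at 49 of the 53 tRNA peaks with Pcr1. Both tRNA calls were lost with Pcr1 peaks of −log10 q at least 10 (0.777 and 0.696, exact adjusted p = 0.337 and 0.304), and the one within strata with a margin of 500 bp (0.48, exact adjusted p = 0.081). Both were also lost among Atf1 peaks of −log10 q at least 10 (1.78 and 1.15) or fold at least 2.5 (1.41 and 0.758), each with 3 members at tRNA genes.

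The 5 members of highest Orc1 fold had their summits in non-coding genes: 3 in tRNA genes, 1 in an rRNA gene and 1 in a long non-coding RNA gene. By the nearest protein-coding start they were −1777 bp from ubr11, a ubiquitin ligase gene (Orc1 fold 5.18, Atf1 fold 2.13), at 2 places upstream of car1, the arginase gene (5.15 and 5.14, Atf1 folds 2.21 and 2.76), −727 bp from atg1, the kinase that starts autophagy (4.73, Atf1 2.56), and 9909 bp from rpb1, the largest subunit of RNA polymerase II (4.61, Atf1 1.95). The farther of the car1 places, with those of ubr11 and rpb1, was in a tRNA gene. It also had Deb1, and 9 members overlapped both proteins. The summit of the atg1 member was in the rRNA gene SPRRNA.55, and rRNA genes and tRNA genes are repeated. Of the 90 members with Orc1 in the annotated part, 63 had the summit outside protein-coding genes and 8 held TGACGT.

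Genes were counted as having a member when a member summit fell in the promoter window or the gene body, and 646 of 4090 protein-coding genes did (15.8%). For Atf1 peaks with Pcr1 the count was 959 (23.4%). Where 2 genes shared a divergent promoter, both were counted. The gene lists below were read against those shares and not tested.

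Genes of ribosomal proteins had the highest share with a member of the 14 lists. A member was at 42 of 114 (36.8%), against 15.8% of all genes, and a peak with Pcr1 at 39 (34.2%), against 23.4%. Of the 42, 31 had no Atf1 peak with Pcr1. The strongest were at rps13 (2.60), rpl2301 (2.45), rpl101 (2.42) and rpl2501 (2.41), the last 25646 bp from a Pcr1 peak. These 37 peaks had low folds, from 1.62 to 2.60 with a median of 2.02, and 21 of them (56.8%) had the summit in coding sequence. Just 1 held TGACGT, 1 had Deb1 and 0 had Orc1. The HomolD box CAGTCACA, the promoter word of ribosomal protein genes, lay within 100 bp of 3 summits (8.11%). It did so for 1.6% of all members and 0.375% of windows along the genome. These peaks were chosen for lying at such genes, so the higher share says nothing about Atf1 binding. The share over all promoters of ribosomal protein genes was not measured. Ribosomal protein genes are commonly in near-identical pairs, so their reads may be divided between copies.

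Other genes known for high expression were less clear. Of 20 translation and glycolysis genes, 6 had a member (30%) and 9 a peak with Pcr1 (45%). The members were at tef103 (2.35) and tef101 (1.83), which encode translation elongation factor 1-alpha and are near-identical copies, at hxk1 (1.96, a hexokinase), gpm1 (1.86, phosphoglycerate mutase, with Deb1), tif51 (1.66) and pdc101 (1.54, a pyruvate decarboxylase).

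The lists known for Atf1 and Pcr1 together were mostly at the peaks that had both. Of 22 stress response genes 4 had a member (18.2%), close to the share of all genes, and 17 had a peak with Pcr1 (77.3%). Their members were in the body of atf1 itself (2.43, coding sequence), in sty1 (2.00, its upstream kinase, with Orc1), at pmk1 (1.72, the cell integrity kinase) and in rds1 (1.61). In 3 of these 4 genes, all but pmk1, an Atf1 peak with Pcr1 was also present, with folds of 3.04 at atf1, 2.33 at sty1 and 3.23 at rds1. Of 13 chaperone genes 1 had a member, psi1 (1.98), and 6 a peak with Pcr1. Of 7 hexose transporter genes 0 had a member and 5 a peak with Pcr1.

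Of 18 genes of gluconeogenesis, glycerol and carbon source, 6 had a member (33.3%) and 13 a peak with Pcr1 (72.2%). Their members were at gsk3 (2.53, a protein kinase), dak2 (2.36, a dihydroxyacetone kinase), fbp1 (2.34), rst2 (2.22, a zinc-finger activator of fbp1), gnd1 (1.52) and atd1 (1.51). Only fbp1 and atd1 of these 6 had no Atf1 peak with Pcr1 in the same windows. Of 17 iron uptake genes, 4 had a member (23.5%) and 11 a peak with Pcr1 (64.7%), with members at isa1 (2.29), str2 (2.15), fep1 (1.90, the iron-sensing repressor, with Deb1) and vht1 (1.84).

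**Figure D5:**
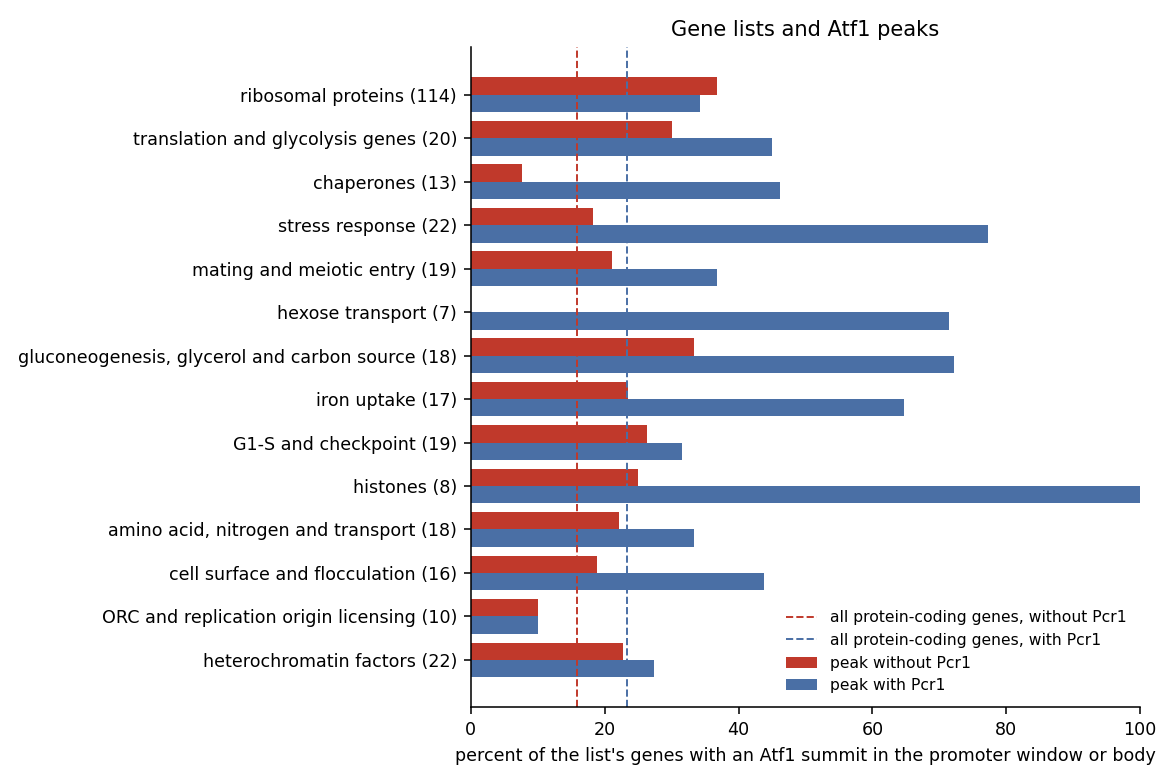
Percent of each list's genes (horizontal axis; number of genes in brackets) with an Atf1 summit without Pcr1 or with Pcr1 in the promoter window or gene body; dashed lines are the shares over all 4090 protein-coding genes (15.8 and 23.4%). Ribosomal protein genes reach 36.8% for peaks without Pcr1, and stress response genes 18.2% without and 77.3% with Pcr1.

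The remaining lists had members at between 10 and 26.3% of their genes, against 15.8% of all genes; the lists are small and their shares were not tested. Of 19 genes of mating and meiotic entry 4 had one (21.1%): mei3 (2.36), the inducer of meiosis, ste7 (1.93), mei2 (1.78), the RNA-binding protein that commits cells to meiosis, and byr2 (1.68), a kinase of the pheromone pathway whose member held the core. Of 19 genes of the G1-S step and checkpoint 5 had one (26.3%), led by rad3 (2.56, the ATR kinase), cdt1 (2.17, the licensing factor), res2 (2.05, a subunit of the G1-S transcription complex) and cdt2 (2.05, with Deb1). All 8 histone genes had a peak with Pcr1, and 2 of them, the neighbours hta1 and htb1, shared 1 member (2.25), which makes 25% of the list. Amino acid, nitrogen and transport genes had members at 4 of 18 (22.2%), namely gln1 (2.22), car1 (2.21), isp6 (1.83) and isp5 (1.82). Cell surface and flocculation genes had them at 3 of 16 (18.8%), namely pfl4 (2.49), pfl8 (2.13) and ags1 (1.80).

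Chromatin genes completed the lists. Of 22 heterochromatin factors 5 had a member (22.7%) and 6 a peak with Pcr1 (27.3%), and the members were at mst2 (2.25, a histone acetyltransferase), epe1 (1.94), raf2 (1.91), clr5 (1.84) and rik1 (1.79, a subunit of the Clr4 methyltransferase complex). Of 10 genes of ORC and origin licensing 1 had a member (10%), mcm2 (2.21), and 1 a peak with Pcr1.

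In the mating-type region, where the Atf1 and Pcr1 strains carry 9xtetO-ura4 in place of CenH, 3 members were listed. In the coordinates of the lists they were chr2:2115884-2115985 (Atf1 fold 1.85), chr2:2125804-2125892 (1.92, with Orc1) and chr2:2132476-2132593 (2.26, with Orc1). They lay 207, 457 and 766 bp from a Pcr1 peak and 216, 358 and 688 bp from an Atf1 peak that had Pcr1. Toward the chromosome ends, within 50000 bp, lay 32 members (4.12%) and 52 of the others (4.27%).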

How the data were processed

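Per the submitters' processing notes, the authors used Bowtie 1.2.3, MACS2 2.1.2 and bedtools; order, settings, genome build, pooling of replicates and use of controls are not given in the sources used here. Each of the 4 deposited lists gives per peak a fold (a ratio over the control), a −log10 q-value, a score and a summit offset. These are the authors' values. In 80 members and 49 other Atf1 peaks the offset fell outside the interval, and the midpoint was used.

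Overlaps were computed in Python 3.11.15 with pandas 2.3.3 and numpy 2.4.6, over whole chromosomes. Genes and sequence came from RefSeq ASM294v3 in the annotated part. Shares were compared by two-sided Fisher's exact tests and by an exact conditional test over 5 strata of Atf1 fold (R 4.3.3), adjusted by Benjamini-Hochberg over 9 features with a threshold of 0.05. Intervals are exact Clopper-Pearson 95% intervals (scipy 1.17.1) and cover counting error only. Scripts were tested on simulated data.

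Members, gene lists, words and tests were chosen with earlier results of these data known. Named members are the 10 of highest Atf1 fold, 5 each by Deb1 fold, Orc1 fold and core, 3 on each side of the threshold, the 5 genes with most members (ties by highest fold), the mating-type region and up to 4 genes per list. Further named list genes, fbp1, tor2, epe1, cpc2 and the GGTAACA sequences were chosen after their values were seen. The gene lists used the gene body in place of coding sequence. Alternatives changed the overlap rule, thresholds, windows, summits and strata; those with width strata, coding or other summits alone and ATGACGT were chosen after seeing the data.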

Additional observations from a re-analysis of the deposited data

How the results depend on the processing

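No paired analysis was possible because each protein has 1 peak list, so no replicate can be left out or blocked. Of 228 alternatives, 166 kept direction and side of the threshold, 26 lost a call, 12 gained one, 21 turned the odds ratio to the other side of 1 and 3 moved a number of peaks; causes were not tested. The number of members, 776, became 1408 with Pcr1 peaks of −log10 q at least 10, and 52 or 55 with Atf1 peaks of −log10 q at least 10 or fold at least 2.5.

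At −log10 q of at least 10, Deb1 and Orc1 were compared over those 52 members and the other features over the 43 of the annotated part. The odds ratios were 0.622 for the core, 1.68 for coding sequence, 0.853 for the promoter window, 0.916 for non-coding genes and 0.565 for Orc1. None of these passed the threshold. The ratios turned to 1.22 for Deb1, 1.78 for tRNA genes and 2.61 for LTRs. At fold of at least 2.5 the numbers of members were 55 and 47. The ratios were then 0.466, 1.66, 1.09 (turned), 0.888, 0.734, 1.14, 1.41 and 2.14 in the same order. Within fold strata the first set gave 0.803 for the core, 1.24 for gene ends, 0.87 for non-coding genes, 1.38 for Deb1, 0.557 for Orc1 and 1.15 for tRNA genes. The second gave 0.693, 1.09, 0.849, 1.38, 0.747 and 0.758.

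The lower share of the core in members lost its call when overlap meant at least 50% of the Atf1 interval (0.838), with a margin of 500 bp (0.834), without members within 1000 bp of an Atf1 peak with Pcr1 (0.759) and with midpoints as summits (0.912), and was 1.19 at coding summits alone. Within strata the core ratio passed the threshold under these first 4 (2.0, 1.76, 1.68 and 1.66), with offsets inside the interval and with a window of 50 bp (1.63 each). It was 0.574 (exact adjusted p = 0.0343) with Pcr1 peaks of −log10 q at least 10 and 0 for the palindrome.

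Within strata, coding sequence passed with Pcr1 summits within 250 bp (1.46), midpoints (1.33) and strata of width (2.17). The promoter call was lost with the 500 bp margin (0.838) and without the near members (0.834), and within strata passed without near members (1.39) and with midpoints (1.32) and was 0.886 by width. Gene ends gave 1.49 (a call) and 1.4 within strata with stronger Pcr1 peaks, and 1.14 within strata at 150 bp. Within strata, without repeats and chromosome ends, non-coding genes (0.71) and Deb1 (0.451) lost their calls, as Deb1 did with Deb1 folds of at least 3 (0.839). tRNA genes lost theirs with stronger Pcr1 peaks (0.777, and 0.696 within strata) and with the 500 bp margin within strata (0.48). LTRs were at 0.793 by strata of width. Orc1 kept its direction under every alternative run, between 0.284 and 0.734, and between 0.351 and 0.747 within strata.

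The depth of the lists is unknown, so the lack of a Pcr1 peak is a lack of a call and cannot be told apart from weak Pcr1 signal. Members strong in Atf1 are few, which limits the tests on them.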
